A study of Mus musculus with 24 samples.

Results

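Oligodendrocyte lineage and myelin genes were followed in both brain hemispheres of mice 2 h after the onset of focal ischaemia. The genes were 30 named genes of this lineage, and each was taken at the platform's probe set for its symbol, a probe set being the group of array probes that measures 1 transcript unit. A row was found for 28 of the 30 among 22206 probe sets that were not array controls, which cover 19505 named genes. Each of the 28 had 1 probe set, and Pdgfra and Ndrg1l were not analysed here. Of the 28 genes, 3 belong to the precursor and early differentiating stage (Gpr17, Enpp6 and Bcas1), 5 are transcription factors of the lineage (Olig1, Olig2, Sox10, Nkx6-2 and Myrf), and 20 are mature myelin genes. The 3 are called precursor genes below for short, although Enpp6 and Bcas1 belong to newly differentiating oligodendrocytes. Pdgfra, a defining gene of earlier precursors, is not among them. The mature genes comprise 16 for proteins of myelin or of the mature oligodendrocyte and 4 for enzymes of its lipid metabolism.

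The tissue came from male C57Bl/6j mice, 8 to 10 weeks old. In 8 of them an intraluminal filament closed the middle cerebral artery for 90 min (MCAO, a model of ischaemic stroke), and reperfusion lasted 30 min. Another 4 mice had sham surgery. All were perfused with cold saline, and each whole hemisphere, ipsilateral (IP) or contralateral (CL) to the surgery, was hybridised to 1 Affymetrix array. The groups were thus MCAO IP and MCAO CL (8 arrays each), and sham IP and sham CL (4 arrays each). A hemisphere holds the ischaemic territory together with tissue outside it, and in such bulk samples fewer cells of a type and less RNA per cell cannot be told apart.

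In the brain, oligodendrocyte precursors divide and differentiate through a premyelinating stage into cells that wrap axons in myelin. Olig1, Olig2 and Sox10 establish the lineage, and Myrf, whose gene Sox10 activates, switches on the genes of compact myelin. Myelin transcripts are abundant in white matter, and oligodendrocytes are known to be sensitive to ischaemia.

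Both hemispheres of MCAO mouse 3, and both of sham mouse 1, gave arrays that stood apart, 4 in all. Their median correlation with the other arrays was 0.328 to 0.55 across probe sets, against 0.981 to 0.989 among the other 20. Background was set on each array at the level that 95% of its negative controls do not exceed, and it lay at 7.41 to 7.61 on these 4 arrays and at 5.17 to 5.74 on the rest (log2). On the 4 arrays, Mbp alone of the 28 genes was above background on all 4, Bcas1 and Trf were on 2, Mobp was on 1 and the other 24 on 0. All values below therefore come from the 20 other arrays (7 MCAO mice and 3 sham mice) unless all 24 are named. On those 20 arrays 21 of the 28 genes were above background throughout, against 33.1% of all probe sets. Gpr17 was above it on 18 arrays, Aspa on 16, Gal3st1 on 9, Hapln2 on 8, Enpp6 on 1, and Gjb1 and Tmem125 on 0. Neuronal markers were well represented, with a mean over 10 genes of 9.51 to 9.84 (log2) on each array.

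The sequence upstream of 4 mature genes is shown because Sox10 and Myrf, measured here too, are known to act on myelin genes. Aspa and Cldn11 are among the genes given in full below. Cnp and Mobp were picked because they hold matches to some of the searched motifs, so the 4 do not show how common matches are. The 250 bases before the annotated start come from RefSeq (GRCm38.p6), written 5′ to 3′ on the strand of the gene. Cnp lies at chr11:100574689-100574938 (plus strand), Mobp at chr9:120149492-120149741 (plus strand), Aspa at chr11:73324638-73324887 (minus strand) and Cldn11 at chr3:31149670-31149919 (plus strand). Capitals mark matches, on either strand, to the SOX core ACAAAG or AACAAT, to the E-box CAGCTG, a form bound by basic helix-loop-helix factors, and to CTGGCAC, a form of the Myrf motif.
Cnp: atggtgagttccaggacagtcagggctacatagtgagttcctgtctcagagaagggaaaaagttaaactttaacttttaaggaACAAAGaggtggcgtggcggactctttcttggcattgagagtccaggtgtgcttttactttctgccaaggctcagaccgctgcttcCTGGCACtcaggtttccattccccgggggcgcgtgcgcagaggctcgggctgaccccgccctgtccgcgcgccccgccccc
Mobp: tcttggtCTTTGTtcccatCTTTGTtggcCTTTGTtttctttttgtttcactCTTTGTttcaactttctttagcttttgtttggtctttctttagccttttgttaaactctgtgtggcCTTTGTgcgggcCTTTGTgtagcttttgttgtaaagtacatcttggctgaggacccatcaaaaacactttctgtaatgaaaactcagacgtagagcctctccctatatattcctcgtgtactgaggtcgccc
Aspa: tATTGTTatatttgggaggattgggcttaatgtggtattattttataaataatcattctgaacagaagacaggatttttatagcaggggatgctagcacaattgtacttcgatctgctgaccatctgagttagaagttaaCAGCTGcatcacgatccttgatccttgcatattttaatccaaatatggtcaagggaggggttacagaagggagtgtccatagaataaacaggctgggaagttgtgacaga
Cldn11: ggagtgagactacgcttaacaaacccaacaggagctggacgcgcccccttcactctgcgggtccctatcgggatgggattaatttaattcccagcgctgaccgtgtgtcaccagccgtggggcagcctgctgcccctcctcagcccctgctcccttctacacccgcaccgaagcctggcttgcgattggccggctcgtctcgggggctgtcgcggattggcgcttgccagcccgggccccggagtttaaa
The Mobp window held 6 matches to the SOX core, all read as CTTTGT. The Cnp window held 1 SOX core and 1 Myrf motif, the Aspa window 1 SOX core and 1 E-box, and the Cldn11 window 0 matches. The matches in these windows do not overlap. Among other genes with 1 window each, those of Ermn, Ugt8a, Tmem125, Gpr37, Ppp1r14a, Nkx6-2 and Mog also held 0 matches. The window of Hapln2 held 3, and those of Cd9, Enpp6, Olig2 and Opalin held 1 each.

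Such windows were at hand for 20 of the 28 genes, with 28 windows in all, since some genes have several starts. ACAAAG was in 8 of the 28 windows and in 16.5% of all 32851 windows. AACAAT was in 5 and in 9.42%, CAGCTG in 3 and in 13.0%, and CTGGCAC in 4 and in 4.19%. A gene with several starts can count more than once here. By gene, ACAAAG was in 6 of 20, AACAAT in 5, CAGCTG in 3 and CTGGCAC in 3. No enrichment was tested. A match describes the letters only and is not a binding site.

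No gene of the lineage passed the test between the hemispheres of MCAO mice. The test was limma's moderated test over all 22206 probe sets with mouse as a block, and a call needed a Benjamini-Hochberg adjusted p below 0.05. It called 0 of the 28 genes, against 0.135% of all probe sets (30, of which 28 were higher IP, 0.126%, and 2 lower, 0.00901%). At an unadjusted p below 0.05 stood 2 of the 28, Sox10 and Cldn11, against 7.1% of probe sets. The 28 log2 differences (MCAO IP minus MCAO CL) had a median of 0.06 and 20 were positive. Over all probe sets 48.4% were positive, and over those above background on all 20 arrays 51.9%. By stage the median was 0.10 for the 3 precursor genes, 0.12 for the 5 factors and 0.05 for the 20 mature genes, with 2, 4 and 14 positive. With all 24 arrays these medians were -0.0014 for the precursor genes, -0.0022 for the factors and 0.12 for the mature genes.

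The intervals bound what could have been missed for genes above background. For 26 of the 28 genes the 95% interval of the MCAO side difference lay within 0.5 log2 units (1.41-fold) of 0, as it did for 84.6% of all probe sets and for 98.1% of those above background on all 20 arrays. The exceptions were Sox10 and Tmem125. These intervals are not adjusted for the number of genes. The 26 include Enpp6, Gjb1, Hapln2 and Gal3st1, which were below background on most arrays, so their intervals do not bound a change in transcript. For the 15 mature genes above background on all 20 arrays, the intervals lay between -0.28 and 0.37.

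**Figure D1:**
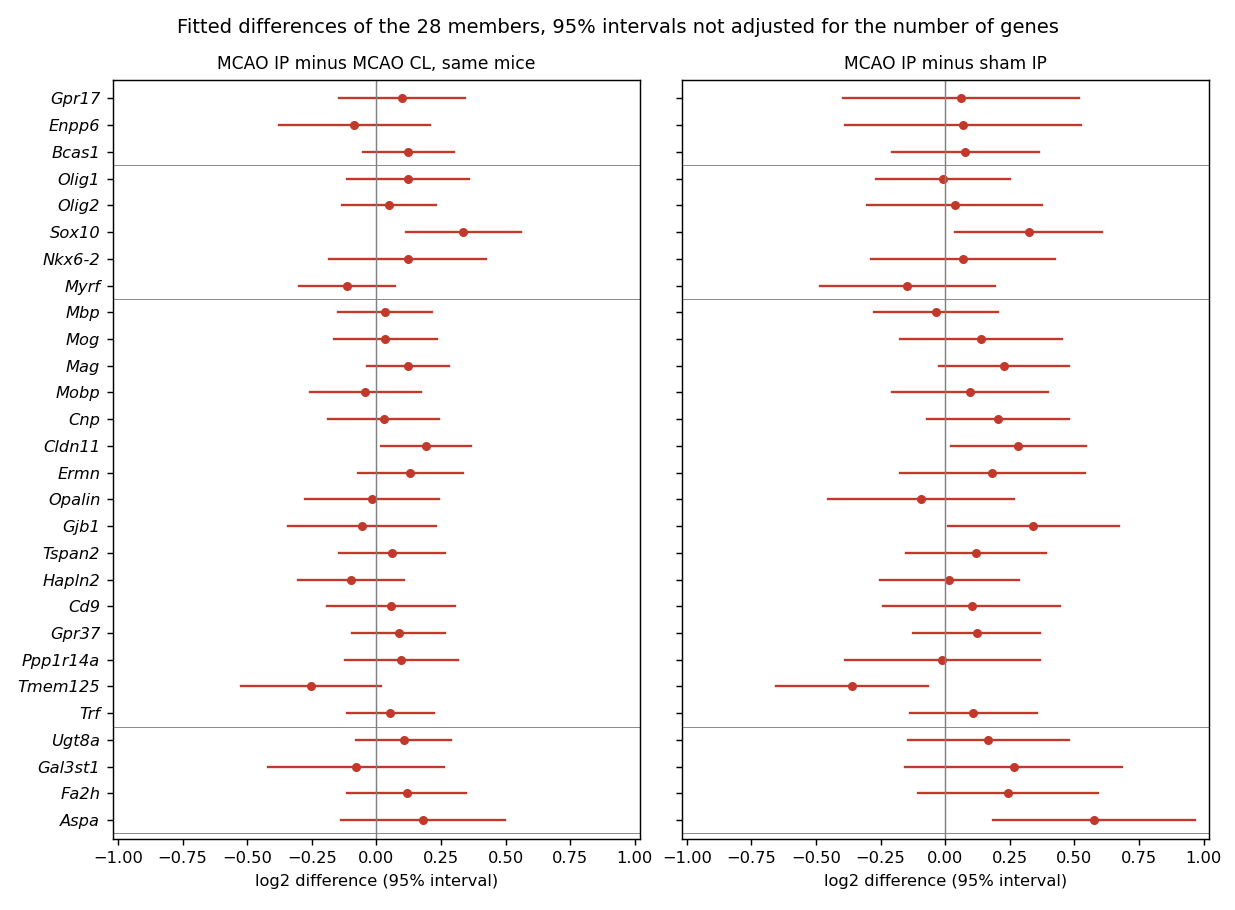
Fitted log2 differences of the 28 genes (points) with 95% intervals (bars) from limma on the 20 arrays: MCAO IP minus MCAO CL within 7 mice on the left, and 7 MCAO IP minus 3 sham IP arrays on the right. Grey lines part precursor genes, lineage factors, myelin and glial proteins, and lipid enzymes from top to bottom. Most intervals on the left cross 0, and Sox10 and Cldn11 lie above it.

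Among precursor genes, Gpr17 encodes a receptor of committed precursors. Its signal was 5.58, 5.77 and 6.32 on MCAO IP arrays (lowest, median and highest of 7) and 5.43, 5.86 and 5.96 on MCAO CL arrays. It was 6.40, 5.63 and 5.39 on the sham IP arrays of mice 2, 3 and 4, and 5.85, 5.88 and 5.24 on their CL arrays. The 4 groups overlapped, and the MCAO side difference was 0.10 ± 0.11 (SE). Sham mouse 2 alone set the highest IP value, and 1 array in each sham group was below background.

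Bcas1 marks newly differentiating, myelinating oligodendrocytes and was above background on all 20 arrays. It measured 8.68, 8.83 and 8.93 on MCAO IP arrays and 8.50, 8.69 and 8.89 on MCAO CL arrays (lowest, median, highest), and was higher IP in 6 of 7 mice. In sham mice 2, 3 and 4 it measured 9.04, 8.66 and 8.51 IP, and 9.17, 8.91 and 8.73 CL. All 3 sham mice were thus lower IP. The MCAO side difference was 0.12 ± 0.08 and that of sham mice -0.20 ± 0.13 (SE). Enpp6, a choline phosphodiesterase of newly forming oligodendrocytes, was at or near background, with 4.33 to 4.90 on MCAO IP and 4.14 to 5.30 on sham IP arrays, and no fold is given for it.

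**Figure D2:**
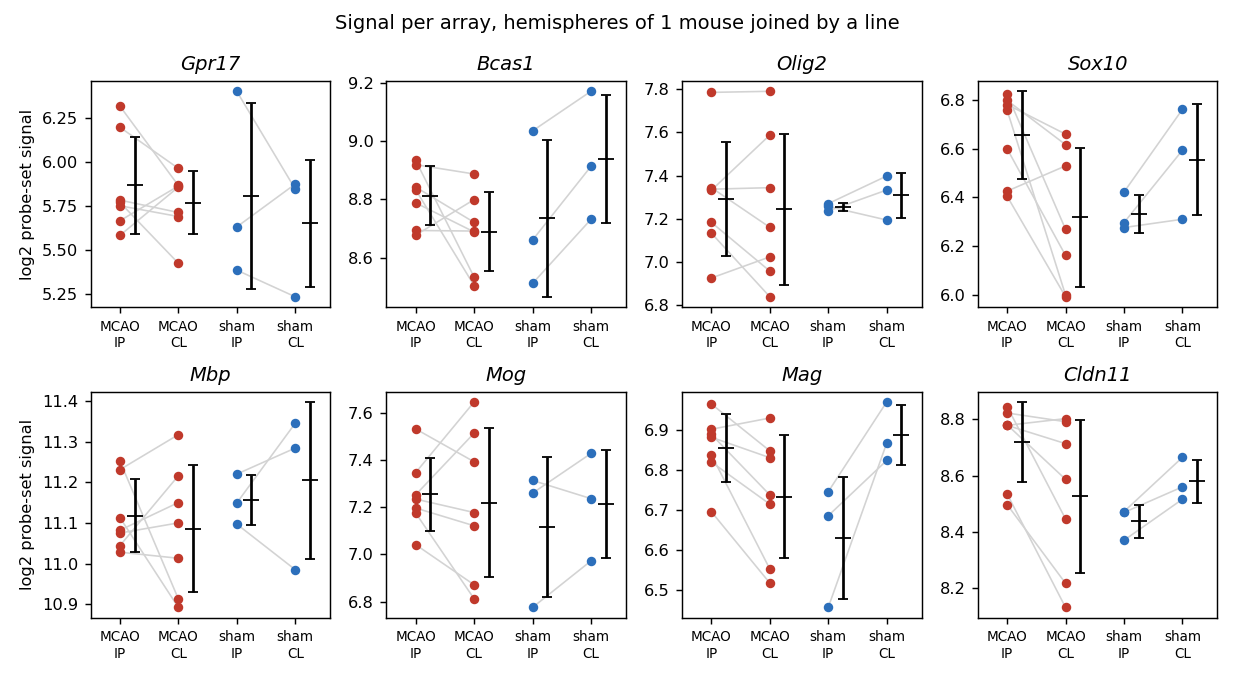
Log2 probe-set signal of 8 genes on each of the 20 arrays, with MCAO (red) left of sham (blue) and IP left of CL. Grey lines join the hemispheres of 1 mouse, and black marks are group means with SD. Sox10, Mag, Bcas1 and Cldn11 were each higher IP in 6 of 7 MCAO mice and lower IP in 3 of 3 sham mice.

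Sox10, the factor that drives differentiation together with Myrf, had the greatest side difference of the 28 genes. Its signal was 6.41, 6.76 and 6.82 on MCAO IP arrays and 5.99, 6.27 and 6.66 on MCAO CL arrays (lowest, median, highest). Sham mice 2, 3 and 4 gave 6.28, 6.42 and 6.30 IP, and 6.31, 6.76 and 6.59 CL. It was higher IP in 6 of 7 MCAO mice and in 0 of 3 sham mice, although the MCAO hemispheres overlapped in level. The MCAO side difference was 0.34 ± 0.10 (SE, 1.26-fold, 95% interval 0.11 to 0.56), which did not pass (limma adjusted p = 0.45). With all 24 arrays it was 0.305 (limma adjusted p = 0.94). Between ipsilateral hemispheres, MCAO exceeded sham by 0.32 ± 0.13 (limma adjusted p = 0.62).

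The other 4 factors gave smaller differences. Olig2 measured 6.92, 7.33 and 7.79 on MCAO IP arrays and 6.84, 7.16 and 7.79 on MCAO CL arrays. Sham mice 2, 3 and 4 gave 7.24, 7.27 and 7.26 IP, and 7.33, 7.40 and 7.19 CL, inside the MCAO range. The Olig2 side difference was 0.05 ± 0.08 in MCAO mice, and that of Olig1 was 0.12 ± 0.11 (SE). Nkx6-2, a homeobox factor of mature oligodendrocytes, differed by 0.12 ± 0.14. Myrf was the 1 factor with a negative MCAO difference, -0.11 ± 0.09, and was lower IP in 6 of 7 MCAO mice and in 3 of 3 sham mice. Its signal was 6.58, 6.91 and 7.26 on MCAO IP arrays and 6.94, 7.00 and 7.33 on MCAO CL arrays. In sham mice 2, 3 and 4 it was 7.31, 7.03 and 6.88 IP, and 7.35, 7.26 and 7.15 CL. The sham side difference of Myrf was -0.18 ± 0.13 (SE), overlapping that of MCAO mice.

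Mature genes for the proteins of compact myelin had small mean differences between MCAO hemispheres. Mbp, myelin basic protein, measured 11.03, 11.08 and 11.25 on MCAO IP arrays and 10.89, 11.10 and 11.32 on MCAO CL arrays. It measured 11.10, 11.15 and 11.22 IP in sham mice 2, 3 and 4, and 10.98, 11.35 and 11.28 CL. The groups overlapped throughout. Its MCAO side difference was 0.03 ± 0.08 (SE), with a 95% interval from -0.15 to 0.21. Mobp, a structural protein of compact myelin, differed by -0.04 ± 0.10, with -0.37 to 0.38 in single MCAO mice, and was lower IP in 3 of 3 sham mice.

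Of the proteins on the outer surface and at the axon, Mog, the outermost myelin glycoprotein, measured 7.04, 7.23 and 7.53 on MCAO IP arrays and 6.81, 7.18 and 7.64 on MCAO CL arrays. Sham mice 2, 3 and 4 gave 6.78, 7.26 and 7.31 IP, and 6.97, 7.43 and 7.24 CL. The Mog side difference in MCAO mice was 0.03 ± 0.09 (SE). Mag, an adhesion protein facing the axon, measured 6.70, 6.88 and 6.96 on MCAO IP arrays and 6.52, 6.74 and 6.93 on MCAO CL arrays. In sham mice 2, 3 and 4 it measured 6.75, 6.68 and 6.46 IP, and 6.97, 6.82 and 6.87 CL. Mag was higher IP in 6 of 7 MCAO mice and lower IP in 3 of 3 sham mice, and the side differences of the MCAO and sham mice did not overlap. They averaged 0.12 ± 0.10 in MCAO mice and -0.26 ± 0.14 in sham mice (SD).

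Cldn11, the claudin of tight junctions between myelin layers, had the second smallest p of the 28 between MCAO hemispheres. It measured 8.50, 8.78 and 8.85 on MCAO IP arrays and 8.13, 8.59 and 8.80 on MCAO CL arrays. Sham mice 2, 3 and 4 gave 8.47, 8.47 and 8.37 IP, and 8.56, 8.66 and 8.52 CL. Every MCAO IP array was above every sham IP array. The difference was 0.19 ± 0.08 between MCAO hemispheres and 0.28 ± 0.12 (SE) between MCAO IP and sham IP, and neither passed (limma adjusted p = 0.66 and 0.63). The Cldn11 window printed above held none of the searched motifs.

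Ermn, a cytoskeletal protein of late oligodendrocytes, measured 7.80, 8.12 and 8.59 on MCAO IP arrays and 7.83, 8.00 and 8.48 on MCAO CL arrays. In sham mice 2, 3 and 4 it measured 8.16, 7.86 and 7.91 IP, and 8.62, 8.23 and 7.99 CL. It was higher IP in 5 of 7 MCAO mice and lower IP in 3 of 3 sham mice. Tmem125 stayed below background on all 20 arrays, with 4.04 to 4.66 on MCAO IP, 4.20 to 4.91 on MCAO CL, 4.57 to 4.77 on sham IP and 4.29 to 4.96 on sham CL arrays. No fold is given for it, although its p between ipsilateral hemispheres was among the smallest of the 28 (limma adjusted p = 0.58).

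The remaining myelin and glial protein genes differed between MCAO hemispheres by at most 0.10 log2 units in either direction. Cnp, the cyclic nucleotide phosphodiesterase of uncompacted myelin, differed by 0.03 ± 0.10 (SE). The tetraspanins Tspan2 and Cd9 both differed by 0.06, with SE 0.09 and 0.11. Trf, transferrin, an iron carrier made by oligodendrocytes, differed by 0.05 ± 0.08. The receptor Gpr37 differed by 0.09 ± 0.08, Ppp1r14a, a myosin phosphatase inhibitor, by 0.10 ± 0.10 and Opalin, a membrane glycoprotein of oligodendrocytes, by -0.02 ± 0.12. Hapln2, a link protein of the node of Ranvier, was above background on 3 of 7 arrays in each MCAO group, 0 of 3 sham IP and 2 of 3 sham CL arrays. Gjb1, the gap junction protein connexin 32, was below background on all 20 arrays, and no fold is given for it.

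Enzymes of myelin lipid and acetate metabolism gave like values. Ugt8a, which makes galactosylceramide, measured 7.20, 7.56 and 7.78 on MCAO IP arrays and 7.29, 7.41 and 7.62 on MCAO CL arrays. Sham mice 2, 3 and 4 gave 7.49, 7.27 and 7.47 IP, and 7.53, 7.64 and 7.69 CL. Its side difference was 0.11 ± 0.09 in MCAO mice and -0.21 ± 0.13 in sham mice (SE). Fa2h, the fatty acid 2-hydroxylase, differed by 0.12 ± 0.11 between MCAO hemispheres. Gal3st1, the sulfotransferase that makes sulfatide, was above background on 2 of 7 MCAO IP and 4 of 7 MCAO CL arrays, and no difference is given for it.

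Aspa, which cleaves N-acetylaspartate into acetate and aspartate, had the smallest p of the 28 between ipsilateral hemispheres. It measured 5.88, 6.29 and 6.66 on MCAO IP arrays and 5.53, 6.09 and 6.47 on MCAO CL arrays. Sham mice 2, 3 and 4 gave 5.45, 5.47 and 6.12 IP, and 5.36, 6.33 and 6.08 CL. The third of these IP values lay inside the MCAO range, and 1 of the 3 sham IP arrays was above background, against 7 of 7 MCAO IP arrays. The measured signals differed by 0.58 ± 0.18 (SE, MCAO IP minus sham IP), which did not pass (limma adjusted p = 0.43), and no fold is given because 2 of the 3 sham IP arrays were at background.

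Between ipsilateral hemispheres, 0 of the 28 genes passed, against 0.149% of all probe sets (28 higher, 0.126%, and 5 lower, 0.0225%). The 28 differences (MCAO IP minus sham IP) had a median of 0.11 with 22 positive. Of all probe sets 51.9% were positive, and of those above background on all 20 arrays 60.3%. The median was 0.07 for precursor genes (3 of 3 positive), 0.04 for the factors (3 of 5) and 0.13 for mature genes (16 of 20). This precursor median, like those of the contralateral, sham and interaction comparisons below, was the value of Enpp6 alone. Enpp6 was above background on 1 of 20 arrays. Cldn11 was the 1 gene of 28 whose MCAO IP and sham IP arrays did not overlap, against 2.38% of all probe sets. At an unadjusted p below 0.05 stood 5 of the 28, against 7.48% of probe sets, and of these Gjb1 and Tmem125 were below background throughout. The interval lay within 0.5 log2 units of 0 for 18 of 28 genes, among them Hapln2, which was above background on 8 of 20 arrays.

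Between contralateral hemispheres, 0 of the 28 genes passed, as did 0.0% of all probe sets by limma. At an unadjusted p below 0.05 stood 0 of the 28 and 4.59% of probe sets. For 0 of the 28 genes, and for 1.38% of probe sets, the CL arrays of the 2 surgeries did not overlap. The differences (MCAO CL minus sham CL) had a median of -0.10 with 7 of 28 positive. Of all probe sets 52.5% were positive, and of those above background on all 20 arrays 54.8%. By stage the median was 0.07 for precursor genes (2 of 3 positive), -0.18 for the factors (0 of 5) and -0.10 for mature genes (5 of 20). The smallest p among the 28 was that of Bcas1, at -0.25 ± 0.13 (SE). MCAO CL serves both this comparison and the one within MCAO mice, so the signs of the 2 comparisons are not independent.

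In sham mice most members gave values below 0, and none passed the test. The sham side differences had a median of -0.15 with 3 of 28 positive. Of all probe sets 48.9% were positive, and of those above background on all 20 arrays 44.9%. The median was -0.08 for precursor genes (1 of 3 positive), -0.12 for the factors (1 of 5) and -0.16 for mature genes (1 of 20). The precursor value was that of Enpp6, at or near background, with Gpr17 at 0.15 and Bcas1 at -0.20. Of the 28 genes, 11 were lower IP in all 3 sham mice, against 12.5% of all probe sets. The 11 include Gjb1, below background on all 20 arrays, and Hapln2, above it on 8. No other probe set passed either (0.0%), and 2 of the 28, Mag and the dim Gjb1, were at an unadjusted p below 0.05 in limma, against 5.49% of probe sets. No member was higher IP in all 7 MCAO mice (1.22% of probe sets were).

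**Figure D3:**
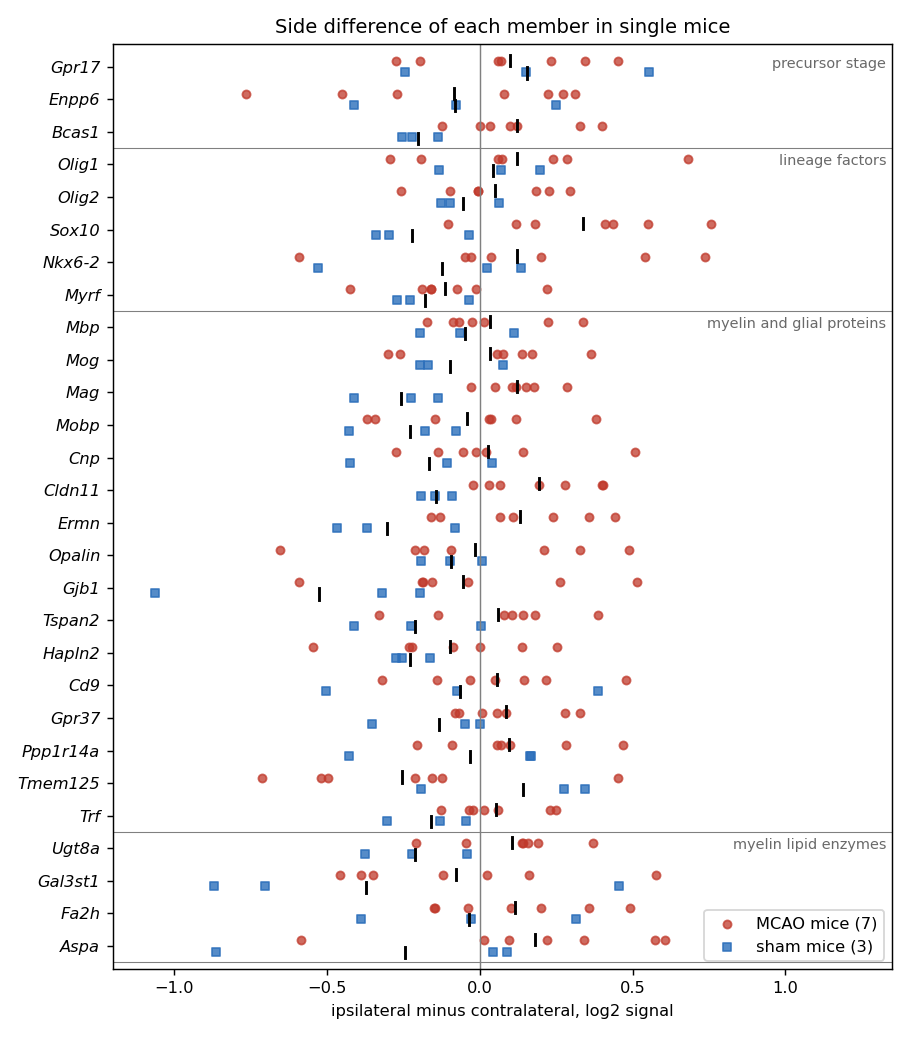
Log2 IP minus CL of each of the 28 genes in the 7 MCAO mice (red circles, above) and the 3 sham mice (blue squares, below), with the mean of each group as a black bar. MCAO values lie on both sides of 0 for every gene, while 11 genes have all 3 sham values below 0. Of these 11, Gjb1 was below background on all 20 arrays, and Hapln2 was above it on 8.

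The side difference of MCAO mice was set against that of sham mice as an interaction of side and surgery. It passed for 0 of the 28 genes, as for 0.0% of all probe sets, and 5 of the 28 had an unadjusted p below 0.05 in limma against 5.91% of probe sets. The interaction had a median of 0.19 with 25 of 28 positive. Of all probe sets 50.0% were positive, and of those above background on all 20 arrays 56.0%. The median was -0.01 for precursor genes (1 of 3 positive), 0.10 for the factors (5 of 5) and 0.20 for mature genes (19 of 20). The smallest p belonged to Sox10 at 0.56 ± 0.19, Mag at 0.38 ± 0.13 and Ermn at 0.44 ± 0.17 (SE, limma adjusted p = 0.69, 0.73 and 0.76).

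For 3 of the 28 genes (Bcas1, Mag and Cldn11) the side differences of the 7 MCAO and 3 sham mice did not overlap, against 2.02% of all probe sets. The 13 genes given in full were also compared between surgeries by permuting mice exactly (two-sided permutation test), where the smallest possible p is 0.00833 over 120 regroupings. Mag reached that p, Cldn11 had an exact p of 0.025, and Sox10, Bcas1 and Ermn had 0.0333, each of them 0.0867 adjusted over the 13. Since these genes were named in part for small p in the same mice, this is no independent evidence. With all 8 MCAO and 4 sham mice the exact p was 0.154 for Mag and 0.00202 for Cldn11, the smallest that 495 regroupings allow, with Cldn11 below background on the 4 added arrays. That exact p was 0.00404 for Sox10, also below background on those 4, 0.731 for Bcas1 and 0.208 for Ermn.

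Members often shared a sign within a mouse, and mice of 1 group differed. Of all probe sets, 42.0% to 53.8% were higher IP in each of the 10 mice. Of those above background on all 20 arrays the share was 41.5% (MCAO mouse 8) to 60.3% (MCAO mouse 5). The mature genes higher IP were 2, 11, 17, 16, 10, 18 and 8 of 20 in MCAO mice 1, 2, 4, 5, 6, 7 and 8, with mean differences of -0.25, 0.02, 0.24, 0.18, -0.06, 0.15 and -0.03. In sham mice 2, 3 and 4 they were 4, 1 and 10 of 20, with means of -0.15, -0.37 and 0.01. MCAO mouse 1 and sham mouse 3 were thus low, and MCAO mice 4, 5 and 7 were high. The mature sham mean was set largely by sham mouse 3, whose 5 lineage factors were also all lower IP. The lineage factors averaged -0.31, 0.00, 0.20, 0.27, -0.06, 0.31 and 0.31 in the same MCAO mice in order, and 0.03, -0.27 and -0.08 in the sham mice. The precursor and mature means had opposite signs in MCAO mouse 6 (0.31 and -0.06), MCAO mouse 2 (-0.17 and 0.02) and sham mouse 2 (0.11 and -0.15). In MCAO mouse 6, however, the 15 mature genes above background on all 20 arrays averaged 0.02. In MCAO mouse 2 only Enpp6, at or near background, was negative (-0.76), with Gpr17 at 0.23 and Bcas1 at 0.03. In sham mouse 2 only Gpr17 was positive (0.55), with Enpp6 at -0.08 and Bcas1 at -0.14.

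Markers of the striatum, a region of the arterial territory, also differed between hemispheres of some mice. Their mean over 6 genes (IP minus CL) was 0.05, 0.04, 0.20, 0.94, 0.00, -0.01 and -0.01 in MCAO mice 1, 2, 4, 5, 6, 7 and 8, and 0.29, -0.26 and 0.21 in sham mice 2, 3 and 4. The striatal and mature means had the same sign in MCAO mice 2, 4, 5 and 8 and sham mice 3 and 4, and opposite signs in the other 4 mice. Several of these means were close to 0. With only the 15 mature genes above background on all 20 arrays, the mature mean was 0.02 in MCAO mouse 6 and -0.02 in sham mouse 4. Both mice then changed places in this count. The mean striatal level ranged over 7.89 to 9.48 on MCAO IP, 7.54 to 9.48 on MCAO CL, 8.90 to 9.25 on sham IP and 8.69 to 9.51 on sham CL arrays. The part of unequal tissue in the member values was not tested.

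**Figure D4:**
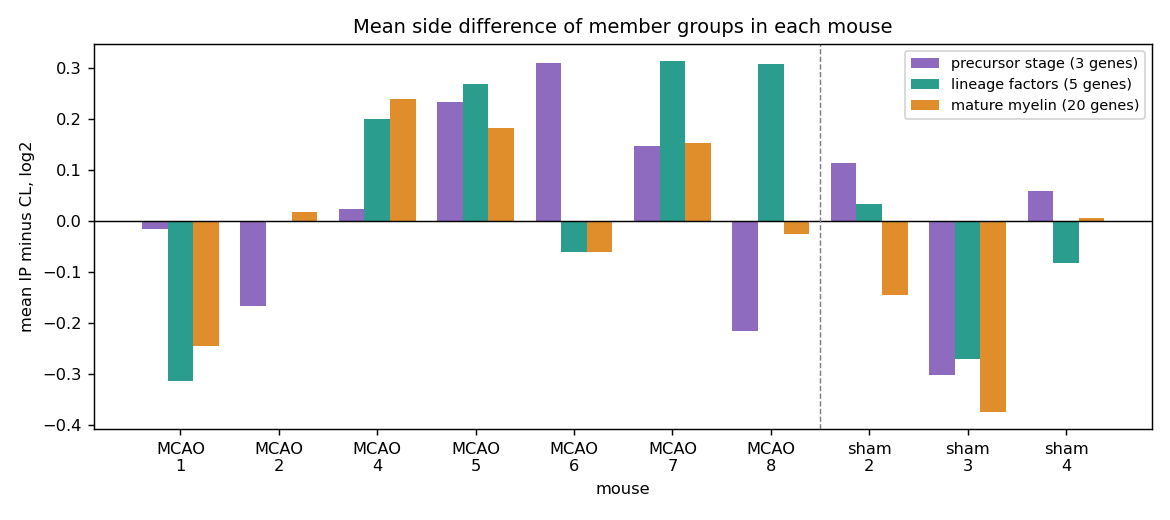
Mean log2 IP minus CL of the 3 precursor genes (purple), 5 lineage factors (green) and 20 mature myelin genes (orange) in each of the 7 MCAO mice (left of the dashed line) and 3 sham mice. MCAO mouse 1 and sham mouse 3 lie below 0 in all 3 groups of genes, and MCAO mice 4, 5 and 7 lie above 0 in all 3. The precursor means of MCAO mice 1 and 4 were near 0 (-0.02 and 0.02), and their signs rest on Enpp6, at or near background (-0.27 and 0.22). Gpr17 and Bcas1 were 0.35 and -0.12 in MCAO mouse 1, and -0.27 and 0.12 in MCAO mouse 4.

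Further genes of the lineage gave the same counts of calls. Of 10 other precursor genes and 29 other myelin genes, 0 passed in any of the 5 comparisons by limma. The other precursor genes had a median of 0.06 between MCAO hemispheres (9 of 10 positive) and -0.03 between sham hemispheres (4 of 10). The other myelin genes had medians of 0.07 (21 of 29) and -0.03 (10 of 29). Klk6, a protease of mature oligodendrocytes, had the smallest p of these between MCAO hemispheres (limma adjusted p = 0.48), and no difference is given for it because it was above background on 4 of 20 arrays. C1ql1, a secreted protein of precursors, differed by 0.23 ± 0.13.

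Of the lists of other cell types, 1 gene passed. Egr2, which drives myelination in Schwann cells and is also an immediate early gene of neurons, rose in MCAO IP by 1.43 ± 0.18 over MCAO CL (SE, limma adjusted p = 0.0044, 7 of 7 mice). It also rose by 1.90 ± 0.30 over sham IP (limma adjusted p = 0.018). With all 24 arrays neither passed (1.17 and 1.37, limma adjusted p = 0.122 and 0.968). The second call was also lost without sham mouse 2, 3 or 4 (limma adjusted p = 0.0889, 0.139 and 0.0995) and under trend and robust priors (0.131). Sox9, an astrocyte factor related to Sox10, differed by 0.39 ± 0.10 between MCAO hemispheres and did not pass (limma adjusted p = 0.256).

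Some of these probe sets lie in genes that overlap another gene in RefSeq. Lims2 overlaps Gpr17, Inpp5a overlaps Nkx6-2 and Dnajc7 overlaps Cnp, and their MCAO side differences were -0.11, -0.02 and -0.02. Whether the probes read both genes was not tested.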

How the data were processed

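The authors deposited log2 signals per probe set, and the submitters' processing notes name Affymetrix Expression Console. The version, normalization method and annotation build were not given in the sources used here. That the scale is log2 was inferred from the tool and the values, so folds rest on it. Per the labels' protocols, the mirVana Paris kit gave the RNA and the GeneChip WT Plus reagents the label. Of 29129 rows, 6923 controls were left out, and 22206 were tested with no filter on signal.

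Side comparisons used limma 3.58.1 in R 4.3.3 and a fixed block per mouse, as 1 animal gave both hemispheres per the labels. In deviations from the group means, hemispheres of a mouse correlated at 0.11 to 0.31, against a median of -0.02 between mice. IP and CL comparisons by surgery used no block. P-values were adjusted over all probe sets, and the number of arrays limits precision. The fit was run on simulated data only to check the code, and no result here rests on it. Members, lists, the naming rule and the choice to leave out 4 arrays were made with earlier results of these data known. Genes given in full were the 4 of smallest p in the MCAO side, IP and CL comparisons, with Gpr17, Olig2, Sox10, Mbp, Mog, Mag and Ugt8a. Alternatives were all 24 arrays, other blocks, filters, centring, quantile normalization, weights, priors and leaving out each mouse.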

Additional observations from a re-analysis of the deposited data

Results flagged for a closer look

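Among 48 groups of arrays tested for an array far from the others of its group, 3 gave 1, and chance gives about 1 in 20. Myrf on the CL array of MCAO mouse 4 (7.33) and Ermn on the CL array of MCAO mouse 2 (8.48) were each far above the other MCAO CL arrays. The mean of the mature genes on the IP array of MCAO mouse 2 (7.58) was far above the other MCAO IP arrays.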

How the results depend on the processing

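With all 24 arrays the count of called probe sets was 19 between MCAO hemispheres and 1 between ipsilateral hemispheres. For the lineage factors the median then was -0.43 in sham mice, 0.42 for the interaction, 0.37 between ipsilateral and -0.0474 between contralateral hemispheres, and for the mature genes it was 0.39 and 0.16 in these last comparisons. The 4 added arrays hold nearly all members below background. The precursor median also took the other sign between contralateral hemispheres (-0.0201) and in the interaction (0.0732), and the precursor and factor medians did between MCAO hemispheres (-0.0014 and -0.0022). Single genes of the other sign with all 24 arrays were, between MCAO hemispheres, -0.0014 for Gpr17 and -0.0069 for Olig2. In sham mice they were 0.0443 for Aspa, 0.15 for Bcas1, -0.0747 for Gpr17, 0.20 for Mbp and 0.35 for Mog. For the interaction they were 0.0732 for Gpr17 and -0.35 for Mog, and between ipsilateral hemispheres 0.13 for Myrf and 0.0552 for Mbp. Array weights gave 0.0142 for Gpr17 in the interaction, and quantile normalization gave -0.0071 for Olig2 between ipsilateral hemispheres.

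Called probe sets between MCAO hemispheres were 19 with only the MCAO mice, 62 without dim probe sets, 97 with array weights and 84 with trend and robust priors. Trend and robust priors gave 5 for the interaction, 50 between ipsilateral and 1 between contralateral hemispheres. Leaving out dim probe sets gave 1 for the interaction and 1 between contralateral hemispheres, and array weights gave 1 there. Without the block for the pairing of hemispheres, 29 were called between MCAO hemispheres, and no call of a member changed. Each alternative fit gave up to 5 comparisons, and 0 members were called in the 93 pairs of fit and comparison, fits without 1 mouse included. The smallest adjusted p was 0.1214, for Sox10 without dim probe sets (limma).

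Leaving out each mouse gave 18 to 27 called probe sets between MCAO hemispheres, 0 to 1 in sham mice, 0 to 8 for the interaction, and a median of the precursor genes of -0.23 to 0.21 between contralateral hemispheres, lowest without sham mouse 4. Without MCAO mice 4, 7 and 8 the MCAO count was 19, 18 and 19, without sham mouse 3 the sham count was 1, and without MCAO mouse 6 the interaction had 8. The precursor median ranged over -0.19 to 0.0852 in sham mice, -0.17 to 0.16 in the interaction and -0.072 to 0.36 between ipsilateral hemispheres, where the factor median ranged over -0.0529 to 0.0638. Ranges of single genes that cross 0 were -0.019 to 0.0663 for Mbp and -0.0199 to 0.0905 for Mog between MCAO hemispheres, and -0.41 to 0.0657 for Aspa, -0.0466 to 0.35 for Gpr17 and -0.13 to 0.0241 for Mbp in sham mice. They were -0.25 to 0.14 for Gpr17 in the interaction, and between ipsilateral hemispheres -0.0351 to 0.23 for Bcas1, -0.15 to 0.36 for Gpr17, -0.0451 to 0.0984 for Olig2 and -0.032 to 0.24 for Mog. Of the 492 other alternative values of named genes 479 kept their sign. The causes of these shifts were not tested. The 3 sham mice and a single time point limit what these arrays can show.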
